A study of Mus musculus with 3 samples.

Results

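The genes described here are those of the mouse major histocompatibility complex (MHC, called H2 in the mouse) and of the machinery that loads its products with peptide. They were taken by symbol from a table of 23421 genes measured by RNA-seq in 3 libraries of E6.5 mouse embryos. All symbols that begin with H2- were included, which gave 44 genes, and B2m, Tap1, Tap2, Tapbp, Cd74, Psmb8, Psmb9, Psmb10, Nlrc5 and Ciita were added, which gave 54 in all. The rule used symbols and no expression values, but the genes were chosen with earlier results of these data known. The table holds 1 library for each of the genotypes WT, tw18/+ and tw18/tw18, all labelled with the strain 129/SvEv and as embryos from matings of tw18/+ mice. The study also speaks of backgrounds that were not inbred, so the labelled strain may not fix the H2 alleles of a library. The tw18 chromosome is a t haplotype of chromosome 17, a variant form of its proximal part, and carries a deletion that removes Ppp2r1a, the gene of a scaffolding subunit of the phosphatase PP2A. WT embryos lack the deletion, tw18/+ embryos carry it on 1 chromosome and tw18/tw18 embryos on both. No other allele and no treatment is named. The labels call the tissue epiblast, and the study's methods describe the embryo proper, that is the epiblast with the visceral endoderm around it, with the extra-embryonic part kept for genotyping. The number of embryos in a library was not stated. With 1 library per genotype no difference has a replicate check, no p-value is given, and each comparison is between these libraries and not between genotypes.

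MHC class I molecules consist of a heavy chain and beta 2-microglobulin, the product of B2m, and display peptides from proteins of the cell's own cytoplasm to cytotoxic T cells. The peptides are cut by the proteasome, pumped into the endoplasmic reticulum by the transporter of Tap1 and Tap2, and loaded with the help of tapasin, the product of Tapbp. MHC class II molecules consist of an alpha and a beta chain, display peptides from the endosomes to helper T cells, and are held ready for them by the invariant chain, the product of Cd74. Class II expression is typical of dendritic cells, macrophages and B cells, and class I expression is known to be low in the early embryo. Nlrc5 and Ciita encode the transactivators of class I and class II genes.

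Values are FPKM, the fragments on a gene scaled for transcript length and for library size, so they can be compared between genes and give each gene relative to the rest of its library. From the spacing of low values, 1 fragment on a transcript of 1 kb was worth an FPKM of 0.0677 in WT, 0.0479 in tw18/+ and 0.0484 in tw18/tw18, so the WT library was the shallowest. Ppp2r1a, the deleted gene, had an FPKM of 146 in WT, 81.7 in tw18/+ and 12.8 in tw18/tw18, and the order of these levels followed the labels, with a remaining signal in the homozygote. It starts at chr17:20945311 (GRCm38), 13.0 Mb proximal to the first H2 gene, so the H2 genes lie outside the deletion. The epiblast markers chosen as a check of the tissue were present in all 3 libraries, with a summed FPKM of 1778, 1894 and 897.

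Of the 54 genes, 33 reached an FPKM of 1 in at least 1 library, 13 stayed above 0 and under 1, and 8 were listed at 0 in all 3. In WT 20 genes were at an FPKM of 1 or more, in tw18/+ 21 and in tw18/tw18 25. Their summed FPKM was 196 in WT, 187 in tw18/+ and 205 in tw18/tw18, or 0.0442%, 0.0410% and 0.0533% of the FPKM of all genes. The genes listed at 0 throughout were H2-Ea-ps, H2-L, H2-M10.1, H2-M10.3, H2-M10.4, H2-M10.5, H2-M11 and H2-M9. Those between 0 and 1 were Ciita, Nlrc5, H2-DMb2, H2-Eb2, H2-M10.2, H2-M10.6, H2-M2, H2-M5, H2-Ob, H2-Q10, H2-Q8, H2-Q9 and H2-T3, with a highest value of 0.828, which was H2-Q9 in WT. The annotation of the build placed 44 of the 54 genes on chromosome 17, and gave no position for H2-Ke2, H2-L, H2-Q8, H2-Q9 and H2-T9.

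**Figure D1:**
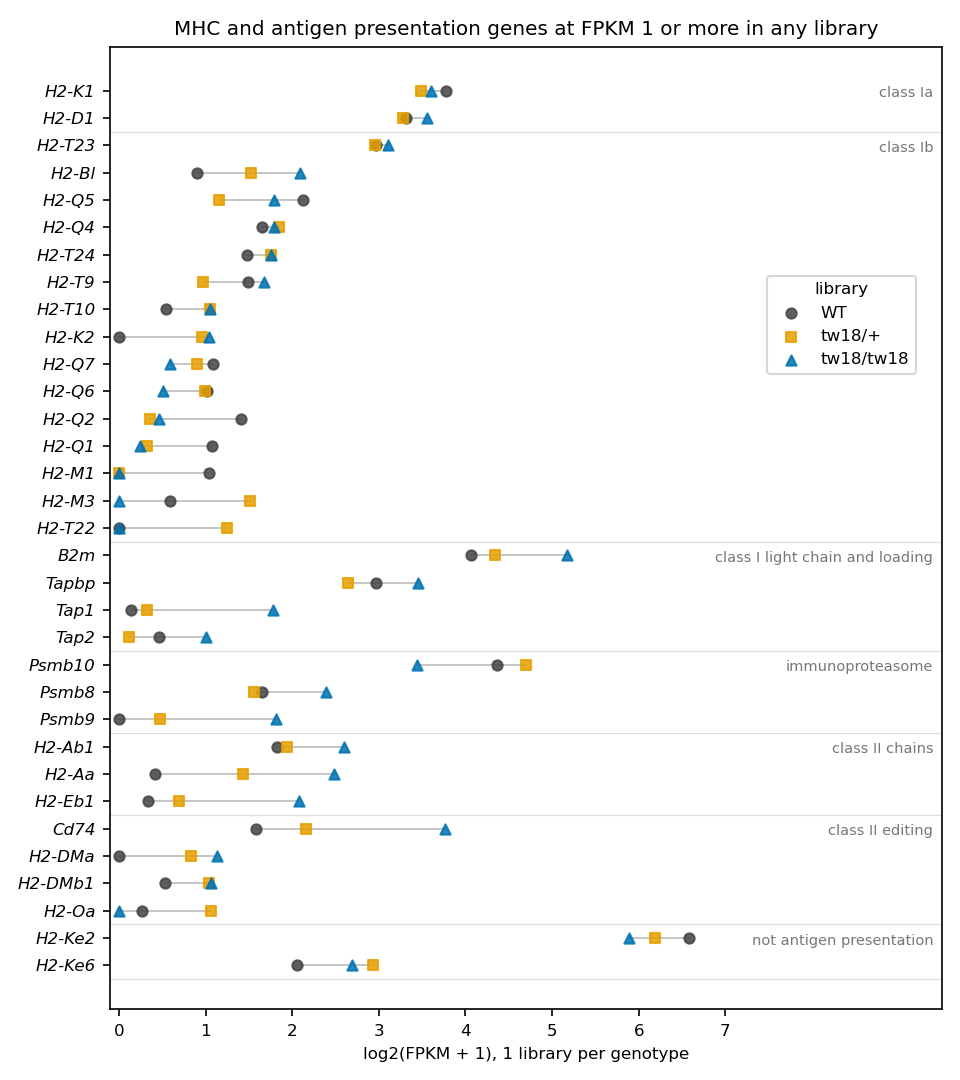
FPKM of the 33 MHC and antigen presentation genes that reached an FPKM of 1 in any library, on a log2(FPKM + 1) axis, with 1 point for each of the WT, tw18/+ and tw18/tw18 libraries and a line over their range; there are no replicates and so no error bars. The heavy chain genes H2-K1, H2-D1 and H2-T23 have their 3 points close together, whereas B2m, Tap1, Psmb9, H2-Aa, H2-Eb1 and Cd74 have the tw18/tw18 point at the right.

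A gene was counted as higher or lower in a pair of libraries when the larger FPKM of the pair was at least 1 and the log2 ratio, without a pseudocount, was at least 1 in size. A gene listed at 0 in one library was counted where the other value was at least 1. Between tw18/tw18 and WT, 30 genes could be counted. Of these, 13 were higher in tw18/tw18, or 43.3%, where 15.1% of the 12917 genes of the table that could be counted were higher. A further 5 were lower, or 16.7%, where 6.94% of all genes were lower. The median log2 ratio of the MHC genes above 0 in both libraries was 0.48, and that of all genes was -0.02. Bringing the libraries to equal FPKM sums would raise every log2 ratio of tw18/tw18 to WT by 0.21, and would give 15 higher and 4 lower MHC genes. Of all genes 19.3% would then be higher and 4.89% lower. Of the 13 higher genes, 10 had an FPKM under 1 in WT and so passed the minimum only through the library in which they were high, and the 5 lower genes passed it only through WT. Low genes also moved more across the table. Where the larger FPKM of the pair was from 1 to under 5, 30.7% of 3628 genes were higher and 14.2% were lower in tw18/tw18, and of the 20 MHC genes in this band 11 were higher and 5 lower. Among the 20 MHC genes at an FPKM of 1 or more in WT, only B2m, Cd74 and Psmb8 were higher and 5 were lower, where 8.64% and 7.56% of all 11859 such genes were higher and lower.

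The heavy chains of the classical class I molecules differed little between the libraries. H2-K1, the heavy chain H-2K, had an FPKM of 12.7 in WT, 10.2 in tw18/+ and 11.1 in tw18/tw18. H2-D1, the heavy chain H-2D, was at 8.93, 8.69 and 10.7. Neither passed the threshold in any pair, with log2 ratios of tw18/tw18 to WT of -0.19 for H2-K1 and 0.26 for H2-D1. Each rested on about 257 to 433 fragments a library. The sign of the H2-K1 ratio depended on the scaling, since it was 0.019 after the libraries were brought to equal FPKM sums. H2-L, the third classical gene, was listed at 0.

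The nonclassical class I genes, of the Q, T and M groups with H2-Bl and H2-K2, went both ways. Of 29 genes 13 could be counted between tw18/tw18 and WT, with 3 higher (23.1%) and 5 lower (38.5%). Of all genes 15.1% were higher and 6.94% lower. The shares were 30.7% and 14.2% of genes with a larger FPKM from 1 to under 5, where all of the 13 but H2-T23 lie. The share of higher genes was thus not above that of the band. H2-T23, whose product Qa-1 presents leader peptides of other class I chains, was the most abundant, at an FPKM of 6.82, 6.73 and 7.64 in WT, tw18/+ and tw18/tw18. H2-Bl was at 0.871, 1.87 and 3.27, with log2 ratios to WT of 1.10 in tw18/+ and 1.91 in tw18/tw18. H2-T10, whose product is a ligand of gamma delta T cells, was at 0.456, 1.07 and 1.08, and H2-K2 was listed at 0 in WT and was at 0.940 and 1.06 in the mutant libraries. These 3 genes were the ones counted as higher in tw18/tw18, and all were already above WT in tw18/+. The annotation types all 3 as pseudogenes, H2-Bl and H2-T10 as polymorphic ones, like H2-Q5, and H2-K2 as a transcribed one.

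The genes on the other side were all of the Q and M groups. H2-Q1 had an FPKM of 1.11 in WT, 0.256 in tw18/+ and 0.180 in tw18/tw18, or about 30.7, 10 and 7 fragments, a log2 ratio of -2.62 between tw18/tw18 and WT. H2-Q2, its neighbour, was at 1.65, 0.283 and 0.380, or about 27.1, 6.6 and 8.7 fragments, a log2 ratio of -2.12. For both genes the tw18/+ value was close to that of tw18/tw18 and far from WT. H2-Q7, which encodes the Qa-2 antigen, was at 1.12, 0.871 and 0.5002, and H2-Q6 was at 1.03, 0.999 and 0.425, with log2 ratios of -1.16 and -1.28. With a pseudocount of 1 the ratios of H2-Q1, H2-Q2, H2-Q6 and H2-Q7 were -0.84, -0.94, -0.51 and -0.50 and no longer passed the threshold. H2-M1 was at 1.05 in WT, or about 14.1 fragments, and was listed at 0 in both mutant libraries. H2-Q5 was at 3.37, 1.23 and 2.47, so tw18/+ was the low library and the ratio of tw18/tw18 to WT, -0.45, did not pass the threshold.

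The remaining nonclassical genes did not pass it between tw18/tw18 and WT or could not be counted. H2-Q4 was at 2.14, 2.60 and 2.47, H2-T24 at 1.79, 2.38 and 2.37, and H2-T9 at 1.81, 0.963 and 2.196 in WT, tw18/+ and tw18/tw18. Only tw18/+ had an FPKM above 1 for the next pair. H2-M3, which presents formylated peptides, was at 0.508 and 1.86 in WT and tw18/+ and was listed at 0 in tw18/tw18, and H2-T22, another ligand of gamma delta T cells, was at 0.000209 and 1.37 and was listed at 0 in tw18/tw18. Summed over groups, the 9 Q genes had an FPKM of 11.8 in WT, 7.57 in tw18/+ and 7.24 in tw18/tw18, and the 6 T genes 10.9, 12.5 and 13.4. All 32 class I heavy chain genes, those typed as pseudogenes included, together had 47.1, 43.7 and 47.3. The Q genes that were lower in the mutant libraries thus stood beside a total that was almost the same in tw18/tw18 as in WT.

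How the reads of these genes were divided matters, because class I genes are copies of each other. Counted as words of 50 bp, the read length, 36.4% of the transcript words of H2-Q5 also occurred in another gene, 34.5% of those of H2-T22, 32.9% of H2-T10, 32.0% of H2-Q6 and 26.4% of H2-Q7. The shares were 21.8% for H2-Q4, 16.1% for H2-Q2, 15.0% for H2-Q1, 13.6% for H2-T23, 12.8% for H2-D1 and 9.63% for H2-K1. The values of the Q and T genes are therefore uncertain, and H2-T22 and H2-T10, which share most of these words with each other, cannot be told apart in them. The H2 haplotype linked to tw18 is not given in the sources used here, and reads were mapped to the reference genome. A difference in mapping between the alleles of the H2 haplotypes and a difference in expression cannot be told apart for any H2 gene. The same holds for Tap1, Tap2, Tapbp, Psmb8 and Psmb9, which lie among or beside the H2 genes on chromosome 17. H2-Ke6, in which 70.5% of the words occur in another gene, is uncertain for the first reason as well.

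Of the light chain and the loading machinery, B2m, Tap1 and Tap2 were higher in tw18/tw18 than in WT and Tapbp did not pass the threshold. Of all genes 15.1% were higher, and 30.7% of those with a larger FPKM from 1 to under 5, where Tap1 and Tap2 lie. Tap1 and Tap2 reached an FPKM of 1 in tw18/tw18 alone. B2m, at chr2:122147686-122153083 and so outside chromosome 17, had an FPKM of 15.8 in WT, 19.2 in tw18/+ and 35.0 in tw18/tw18. The value in tw18/tw18 was 2.21 times that in WT and 1.82 times that in tw18/+, and tw18/+ lay 1.22 times above WT. B2m has no words in common with another gene and rested on about 166, 285 and 513 fragments. Relative to the summed FPKM of the class I heavy chains, B2m was 0.335 in WT, 0.440 in tw18/+ and 0.740 in tw18/tw18.

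Tap1, a subunit of the peptide transporter, had an FPKM of 0.101 in WT, 0.253 in tw18/+ and 2.44 in tw18/tw18, or about 4.2, 14.8 and 141 fragments. Its log2 ratio of 4.59 to WT was the largest of the genes above 0 in both libraries, and the ratio of tw18/tw18 to tw18/+ was 3.27. The WT value rests on so few fragments that the size of the ratio to WT is poorly known, while the ratio of the mutant libraries rests on more. Tap2, the other subunit, was at 0.378, 0.0833 and 1.01, or about 18.4, 5.7 and 68.4 fragments, so it was also highest in tw18/tw18 but lowest in tw18/+. Its log2 ratio to WT was 1.41, and with a pseudocount of 1 it was 0.54 and no longer passed. Tapbp was at 6.79, 5.23 and 9.94, and its log2 ratio of 0.55 between tw18/tw18 and WT did not pass the threshold.

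The subunits of the immunoproteasome, which replace catalytic subunits of the ordinary proteasome in cells exposed to interferon gamma and in immune cells, differed in direction. Psmb9 was listed at 0 in WT and had an FPKM of 0.386 in tw18/+ and 2.52 in tw18/tw18, a log2 ratio between the last pair of 2.71. Psmb8 was at 2.13, 1.95 and 4.26, which gave a log2 ratio of tw18/tw18 to WT of 1.0004 and placed it just inside the threshold. Psmb10 was at 19.6, 25.0 and 9.86, so it was lower in tw18/tw18 than in tw18/+ by a log2 ratio of -1.34, and its ratio to WT of -0.99 lay just outside the threshold. Psmb10 was the most abundant of them and lies outside chromosome 17.

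The ordinary subunits that they replace were far more abundant in all libraries. Psmb5 had an FPKM of 225, 226 and 138 in WT, tw18/+ and tw18/tw18, Psmb6 179, 213 and 134, and Psmb7 212, 218 and 163, with none of the 3 past the threshold. Psmb8 made up 0.939%, 0.857% and 3.003% of its pair with Psmb5, Psmb9 made up 0%, 0.181% and 1.84% of its pair with Psmb6, and Psmb10 made up 8.47%, 10.3% and 5.70% of its pair with Psmb7. The 3 immunoproteasome genes together were 3.41%, 4.004% and 3.68% of the catalytic subunits. The shares of Psmb8 and Psmb9 were thus highest in tw18/tw18 and that of Psmb10 was lowest there, while the total share stayed within 3.41% to 4.004%.

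The class II chain genes that reached an FPKM of 1, namely H2-Aa, H2-Ab1 and H2-Eb1, were lowest in WT and highest in tw18/tw18. H2-Eb1 reached it in tw18/tw18 alone and H2-Aa in the mutant libraries alone, so both passed only through libraries in which they were high. Of all genes at an FPKM of 1 or more in any library, 21.1% had this rising order. Between tw18/tw18 and WT 15.1% of all genes were higher, and 30.7% of those with a larger FPKM from 1 to under 5. H2-Aa, the alpha chain of the A molecule, had an FPKM of 0.339 in WT, 1.70 in tw18/+ and 4.59 in tw18/tw18, or about 4.9, 34.7 and 92.7 fragments. H2-Eb1, the beta chain of the E molecule, was at 0.260, 0.621 and 3.22, or about 5.8, 19.7 and 101 fragments. The log2 ratios of tw18/tw18 to WT were 3.76 for H2-Aa and 3.63 for H2-Eb1, and for both genes the tw18/+ value lay between the others. H2-Ab1, the beta chain that pairs with H2-Aa, was at 2.55, 2.83 and 5.07, with a log2 ratio of 0.99 that lay just outside the threshold. Of the other chain genes, H2-Eb2 had another order, at 0.107 in WT and 0.322 in tw18/+ and listed at 0 in tw18/tw18, and H2-Ea-ps was listed at 0 throughout. The 5 chain genes had a summed FPKM of 3.26, 5.47 and 12.9.

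Of the 4 genes that prepare class II molecules and reached an FPKM of 1, all but H2-Oa were lowest in WT and highest in tw18/tw18. Only Cd74 reached an FPKM of 1 in WT, so the others passed only through mutant libraries in which they were high. The shares of all genes given for the chain genes apply here too. Cd74, the invariant chain, had an FPKM of 1.998 in WT, 3.45 in tw18/+ and 12.6 in tw18/tw18, or about 37.2, 90.8 and 329 fragments, and the last value was 6.32 times the first. It lies outside chromosome 17 and has no words in common with another gene. H2-DMa, a chain of the DM molecule that exchanges peptides on class II, was listed at 0 in WT and was at 0.782 in tw18/+ and 1.20 in tw18/tw18. H2-DMb1, the other chain of DM, was at 0.451, 1.05 and 1.10, so both mutant libraries lay above WT and close to each other. H2-Oa, a chain of the DO molecule that restrains DM, was at 0.207 and 1.09 in WT and tw18/+ and listed at 0 in tw18/tw18. H2-DMb1 has 22.7% of its words in common with H2-DMb2, which was under 1 in all libraries.

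The transactivators had low FPKM values on long transcripts. Ciita, the transactivator of class II genes, was listed at 0 in WT and was at 0.261 in tw18/+ and 0.0779 in tw18/tw18, or about 31.9 and 9.4 fragments, so the library with the highest class II levels was not the one with the highest Ciita. Nlrc5, the transactivator of class I genes, was at 0.167, 0.0448 and 0.390, or about 18.3, 6.9 and 59.9 fragments, so tw18/tw18 was highest, at 8.72 times the tw18/+ level. Neither reached the FPKM minimum in any pair, so neither was counted.

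H2-Ke2 and H2-Ke6 carry H2 symbols from their place in the complex but have no part in antigen presentation. H2-Ke2, which the RefSeq synonyms give as Pfdn6, a prefoldin subunit, had an FPKM of 95.01, 72.2 and 58.3 in WT, tw18/+ and tw18/tw18, the highest levels among the 54 genes. H2-Ke6, a hydroxysteroid dehydrogenase, was at 3.15, 6.62 and 5.46. Neither passed the threshold between tw18/tw18 and WT, although H2-Ke6 moved from 0.79 to 1.004 with equal FPKM sums and then passed it.

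The tw18/+ library differed from WT in fewer of the genes. Of 27 that could be counted 8 were higher, where 4.7% of all genes were, and 4 were lower, where 5.02% were, and the median log2 ratio was 0.22. The higher genes were H2-Aa, H2-Bl, H2-T10, H2-DMb1, H2-M3, H2-Oa, H2-T22 and H2-Ke6, and the lower genes were H2-Q1, H2-Q2, H2-Q5 and H2-M1. All the higher genes but H2-Ke6 were under an FPKM of 1 in WT, so they passed the minimum only through tw18/+. All the lower genes but H2-Q5 passed it only through WT. The shares of all genes were not matched for FPKM level. A pseudocount of 1 left 2 higher and 2 lower of 27, against 2.12% and 2.31% of all genes. None of B2m, Tapbp, Psmb8, Psmb10 and Cd74, which were at an FPKM of 1 or more in both libraries, passed the threshold here. Because this comparison and the one of tw18/tw18 with WT use the same WT library, genes that stand out in both are not independent evidence.

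Between tw18/tw18 and tw18/+, the deeper pair of libraries, 9 of 28 genes were higher in tw18/tw18, where 14.9% of all genes were, and 4 were lower, where 5.65% were, and the median log2 ratio was 0.81. The higher genes were Tap1, Tap2, Psmb8, Psmb9, H2-Aa, H2-Eb1, Cd74, H2-Q5 and H2-T9, and the lower genes were Psmb10, H2-M3, H2-T22 and H2-Oa. The first 7 of the higher genes were also higher in tw18/tw18 than in WT, and no gene was lower in tw18/tw18 in both comparisons, which share the tw18/tw18 library. Tap1, Tap2, Psmb9, H2-Eb1 and H2-T9 were under an FPKM of 1 in tw18/+ and so were counted here only through tw18/tw18. H2-M3, H2-T22 and H2-Oa were counted here only through tw18/+. A pseudocount of 1 left 5 higher and 4 lower of 28 in this pair, against 9.18% and 2.92% of all genes. Among the 33 genes with an FPKM of 1 or more in any library, 12 had their levels in the rising order WT, tw18/+, tw18/tw18 and 4 in the falling order, where 21.1% of 13118 genes had the rising and 20.1% the falling order. The 12 were B2m, Cd74, H2-Aa, H2-Ab1, H2-Bl, H2-DMa, H2-DMb1, H2-Eb1, H2-K2, H2-T10, Psmb9 and Tap1, and the 4 were H2-Ke2, H2-Q1, H2-Q6 and H2-Q7.

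**Figure D2:**
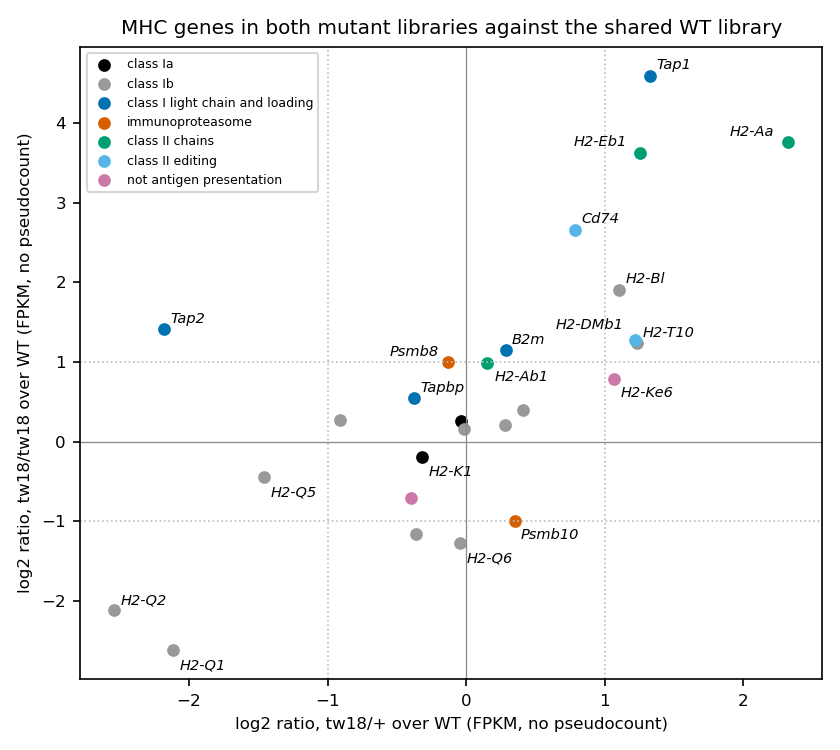
Log2 ratio of FPKM to WT in tw18/+ (x axis) and in tw18/tw18 (y axis) for the MHC and antigen presentation genes above 0 in all 3 libraries and at an FPKM of 1 or more in any, coloured by role, with dotted lines at a log2 ratio of 1 in size. Tap1, H2-Aa, H2-Eb1 and Cd74 lie at the top, at 4.59, 3.76, 3.63 and 2.66 on the y axis, while H2-Q1 and H2-Q2 lie at the lower left and Tap2 is the gene high in tw18/tw18 and low in tw18/+; both axes share the WT library.

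Along chromosome 17 several of the higher genes lay next to each other. Psmb9, Tap1, Psmb8, Tap2, H2-Ab1, H2-Aa and H2-Eb1 lie within chr17:34181987-34316674, and all but H2-Ab1, just outside the threshold, were higher in tw18/tw18. All genes of the table that start in this stretch are MHC or antigen presentation genes, among them H2-Ob, which was under 1 in all libraries and could not be counted. H2-Q1, H2-Q2, H2-Q6 and H2-Q7, which were lower, lie within chr17:35320405-35443773. H2-Q4 and H2-Q5 lie there too and did not pass the threshold, with log2 ratios of 0.21 and -0.45. The higher genes H2-K2, H2-DMa, H2-DMb1, H2-Bl and H2-T10 and the lower gene H2-M1 lie outside both stretches. The H2 genes with a position span 3.51 Mb, and 137 other genes of the table start elsewhere in this interval. Of these 74 could be counted between tw18/tw18 and WT, with 10 higher (13.5%), 6 lower (8.11%) and a median log2 ratio of -0.09, near the values of all genes. Cd74 and B2m, on other chromosomes, were higher in tw18/tw18 as well.

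**Figure D3:**
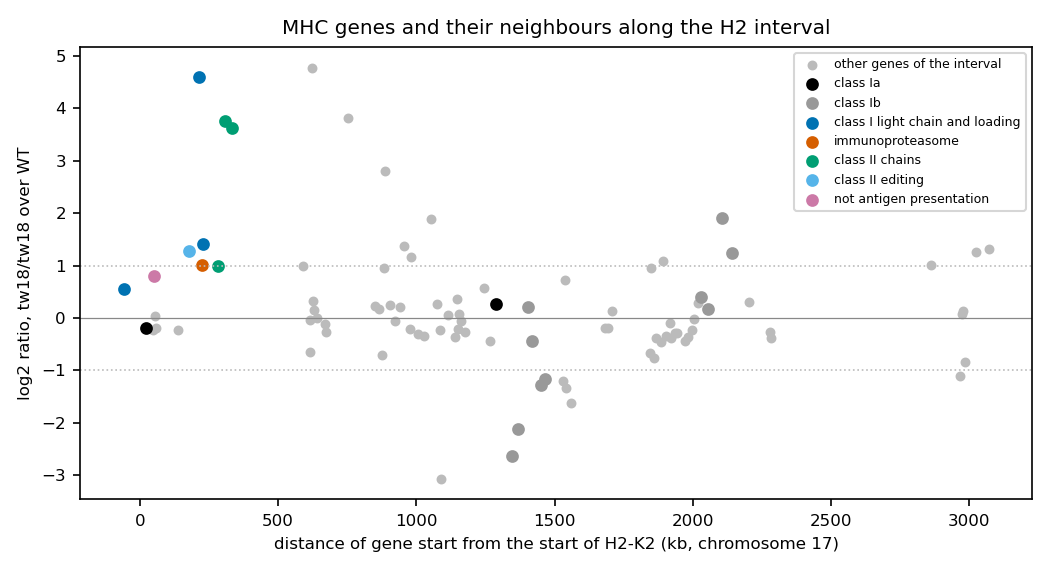
Log2 ratio of tw18/tw18 to WT (y axis) against the distance of the gene's lower coordinate from that of H2-K2 in kb (x axis) for genes of the H2 interval of chromosome 17 above 0 in both libraries, with the H2 and loading genes coloured by role and the other genes in grey; 1 library per genotype. The grey points scatter around a median of -0.09, the coloured points near the left edge are mostly above 0, and the points of the H2-Q group below the lower dotted line are H2-Q1, H2-Q2, H2-Q6 and H2-Q7.

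Class I and class II promoters are known for a shared control module, in which an X box with a cyclic AMP response element and a Y box with an inverted CCAAT are read by RFX, CREB and NF-Y proteins. The RefSeq windows of promoter sequence (GRCm38.p6, 250 bases before to 50 bases after the gene start) were available for 37 of the 54 genes in 40 windows. They are shown for 5 genes on which the results turn: Tap1, H2-Aa and H2-Eb1, with the largest ratios of tw18/tw18 to WT, B2m, the most abundant of the higher genes, and H2-K1, a heavy chain gene that did not pass the threshold. Each is on the gene's own strand, 5' to 3', and capitals mark the letters of the motifs searched, on either strand. These were CCAAT (core of the Y box), TGACG (core of the cyclic AMP response element), GGGATTCC (kappa B element), GAAANNGAAA (core of the interferon-stimulated response element) and TTCNNNGAA (gamma-activated site). The windows are at chr17:34187306-34187605 (plus strand) for Tap1, chr17:34287774-34288073 (minus strand) for H2-Aa, chr17:34305617-34305916 (plus strand) for H2-Eb1, chr2:122147437-122147736 (plus strand) for B2m and chr17:34000284-34000583 (minus strand, 1 of 2 windows) for H2-K1.
Tap1: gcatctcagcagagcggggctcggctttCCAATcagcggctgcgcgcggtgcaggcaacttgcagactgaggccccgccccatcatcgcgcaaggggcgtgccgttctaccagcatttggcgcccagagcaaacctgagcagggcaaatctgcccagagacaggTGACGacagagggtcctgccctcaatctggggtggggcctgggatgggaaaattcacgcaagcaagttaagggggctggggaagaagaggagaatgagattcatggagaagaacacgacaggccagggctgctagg
H2-Aa: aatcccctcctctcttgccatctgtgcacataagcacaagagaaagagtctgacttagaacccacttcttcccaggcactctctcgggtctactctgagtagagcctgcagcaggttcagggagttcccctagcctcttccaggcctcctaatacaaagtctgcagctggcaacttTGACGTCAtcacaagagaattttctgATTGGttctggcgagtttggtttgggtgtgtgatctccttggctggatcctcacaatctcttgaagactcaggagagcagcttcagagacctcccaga
H2-Eb1: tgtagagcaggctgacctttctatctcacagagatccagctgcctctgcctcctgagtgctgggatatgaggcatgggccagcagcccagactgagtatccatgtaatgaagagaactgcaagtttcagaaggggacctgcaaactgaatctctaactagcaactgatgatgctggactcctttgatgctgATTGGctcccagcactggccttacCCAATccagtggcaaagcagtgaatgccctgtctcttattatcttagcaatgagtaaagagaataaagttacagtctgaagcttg
B2m: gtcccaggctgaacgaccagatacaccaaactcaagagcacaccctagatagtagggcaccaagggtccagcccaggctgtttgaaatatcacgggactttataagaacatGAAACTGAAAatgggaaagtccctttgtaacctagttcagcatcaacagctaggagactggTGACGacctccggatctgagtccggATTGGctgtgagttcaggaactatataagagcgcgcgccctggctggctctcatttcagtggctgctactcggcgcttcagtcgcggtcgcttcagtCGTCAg
H2-K1: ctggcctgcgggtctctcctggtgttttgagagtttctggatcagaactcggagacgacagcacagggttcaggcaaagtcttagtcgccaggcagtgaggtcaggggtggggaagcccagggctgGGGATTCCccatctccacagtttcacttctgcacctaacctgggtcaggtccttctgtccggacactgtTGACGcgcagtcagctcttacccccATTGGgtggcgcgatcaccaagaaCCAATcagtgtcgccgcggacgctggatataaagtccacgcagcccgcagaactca

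CCAAT was found in 34 of the 40 windows (85%), against 37.4% of all 32851 windows of the table. TGACG was in 16 (40%) against 20.8%, and both were together in 16 (40%) against 7.73%. In the windows printed, H2-Aa holds TGACG on both strands in 1 overlapping run followed by CCAAT on the opposite strand. H2-K1 and B2m hold TGACG upstream of CCAAT on the opposite strand, and H2-Eb1 holds CCAAT on each strand and no TGACG. Tap1 holds both motifs in another order, with CCAAT on its own strand at -222 from the start, upstream of TGACG at -86. GGGATTCC was in 5 windows (12.5%), those of H2-D1, H2-K1, H2-Q6 and H2-Q7, against 1.06%. GAAANNGAAA was in 3 windows (7.5%), of B2m, H2-T22 and H2-T23, against 3.44%, and TTCNNNGAA in 4 (10%) against 8.30%. Only these exact letters were searched, so a window without a match, such as that of H2-K1 for GAAANNGAAA, may still hold a variant of an element. The motifs were chosen with the windows in view, and the H2 windows share ancestry, so the shares are a description. The 2 windows of H2-K1 overlap, as do the 2 of H2-M9 and those of Tap1 and Psmb9. Motifs in these overlaps were counted in each window. The windows of Tap1 and Psmb9, which start on opposite strands, overlap in 275 bases at chr17:34187306-34187580, so both genes, low in WT and highest in tw18/tw18, have a stretch of promoter sequence in common. In the GENCODE annotation the genes themselves also overlap, from the start of Tap1 at chr17:34187553 to the end of Psmb9 at chr17:34187764. The libraries were made to keep the strand, but whether the counting used it is not stated, so fragments of this overlap may have gone to either gene.

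Of 18 other genes of antigen processing, 16 were in the table and could be counted against WT. Only Ctss, a protease of the class II pathway, was higher in tw18/tw18, at 0.854, 1.11 and 2.07 in WT, tw18/+ and tw18/tw18, and only Erap1, which trims class I peptides, was lower, at 5.68, 5.92 and 2.82. Of 12 transcription factors that act on MHC genes none passed the threshold against WT. The most abundant was Nfyc, a subunit of NF-Y, at 44.8, 45.9 and 35.8, and Irf1 was at 13.1, 16.8 and 8.68.

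Genes of interferon signalling, which switches on many of the MHC genes, were higher in 6 of the 14 that could be counted between tw18/tw18 and WT, and lower in 0. Of all genes 15.1% were higher and 6.94% lower, and 30.7% were higher among those from 1 to under 5 FPKM. Irf7, a factor induced by interferon, was at 2.42, 5.29 and 20.0, and Jak1, a kinase of the interferon receptors, at 12.5, 14.6 and 43.1. Irf8 was listed at 0 in WT and was at 0.385 in tw18/+ and 1.27 in tw18/tw18. Ifng and Ifnb1, the interferons themselves, were listed at 0 in all 3 libraries. Of 14 interferon-stimulated genes that could be counted 8 were higher and 0 lower, with Ifi44 at 0.299, 0.713 and 2.76 and Gbp7 at 0.288, 0.421 and 1.90. The lists overlap, so their counts are not independent. In tw18/+ against WT 1 of 13 signalling genes was higher and 1 lower, and of 11 stimulated genes 0 were higher and 1 was lower.

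Genes of class I-like molecules outside the H2 symbols were counted in 7 of 12 cases between tw18/tw18 and WT, and these 7 were higher in tw18/tw18, where 15.1% of all genes were. Mr1, Raet1d and Raet1e were under an FPKM of 1 in WT and passed the minimum only through tw18/tw18, so that they had to differ. Raet1e, a ligand of the receptor NKG2D, was at 0.000117, 0.570 and 1.53, and Raet1d, another, was listed at 0 in WT and was at 0.367 and 2.22. Mr1, which presents vitamin metabolites, was at 0.260, 1.05 and 1.68. Hfe and Fcgrt, which pair with beta 2-microglobulin to regulate iron uptake and to carry antibodies, were at 1.51, 1.60 and 7.18 and at 1.54, 1.73 and 5.49. The WT levels of Raet1d and Raet1e were at or near 0, and no fold is given for them.

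Since class II genes are typical of immune cells, markers of such cells and of the tissues around the embryo were read in the same libraries. The marker counts between tw18/tw18 and WT stand beside 15.1% higher and 6.94% lower among all genes. From 1 to under 5 FPKM, where many of the markers lie, these shares were 30.7% and 14.2%. Leukocyte markers summed to an FPKM of 9.18 in WT, 8.97 in tw18/+ and 15.0 in tw18/tw18 over 7 genes. Of the 5 that could be counted 1 was higher, Fcer1g at 0.880, 1.81 and 6.18. The 2 lower were Coro1a at 2.86, 4.16 and 1.34 and Cd52 at 1.30 and listed at 0 in both mutant libraries. Ptprc, the defining leukocyte antigen CD45, was at 0.248, 0.280 and 0.695. The 8 macrophage markers summed to 21.4, 12.6 and 33.5. Of the 4 that could be counted 2 were higher in tw18/tw18, C1qb at 0.409, 0.635 and 2.85 and Lyz2 at 3.77, 2.85 and 13.1. Csf1r, the receptor that defines macrophages and is also known from trophoblast and decidua, was at 10.7, 4.02 and 8.06.

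Most markers of the other antigen-presenting and lymphoid cells were at or near 0. Dendritic cell markers summed to 1.001, 0.890 and 2.27, mostly Zbtb46 at 0.984, 0.740 and 1.79, with Flt3 listed at 0 throughout and Itgax at 0, 0.0129 and 0.181. B cell markers summed to 0.546, 0.469 and 1.08, with Cd79a at 0.546 and 0.469 and listed at 0 in tw18/tw18, Cd79b seen only in tw18/tw18 at 0.653, and Ms4a1 listed at 0 throughout. T cell markers summed to 2.50, 1.67 and 5.96, nearly all of it Cd8a at 2.50, 1.12 and 5.77, while Cd3g was listed at 0 throughout. Natural killer cell markers summed to 0.864, 0.845 and 1.41, with Gzmb at 0.511, 0.549 and 1.22 and Ncr1 and Klrb1c listed at 0 throughout. A few cells of these kinds would give few fragments, and at this depth their absence cannot be read from a value of 0.

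Most markers of blood vessels and of the decidua, the maternal tissue around the implanted embryo, were higher in tw18/tw18 too, where 15.1% of all genes were higher and 6.94% lower. The 7 endothelial markers summed to 39.2 in WT, 25.99 in tw18/+ and 91.6 in tw18/tw18, with 5 higher than in WT, among them Tek at 0.280, 1.04 and 3.25 and Eng at 2.72, 2.51 and 15.6. The 10 decidual markers summed to 1614, 277 and 779, and 9 of them were higher, among them Hoxa11 at 3.67, 6.87 and 30.8 and Wnt4 at 1.69, 3.32 and 11.2, while Prl8a2, the most abundant, was lower, at 1504, 155 and 377. The paper counts Eng as a mesodermal gene and Hand2, on the decidual list, as a regulator of lateral mesoderm. It also reports stronger expression of Bmp2, another gene of that list, in the mutant. These 3 genes are thus not particular to vessels or decidua. The 6 adult erythroid markers summed to 133, 154 and 364, with 4 higher and 1 lower, and had Hba-a2 at 0.0201, 26.9 and 127, Hbb-bs at 0.01797, 0.555 and 47.6 and Hba-a1 at 52.2, 27.1 and 0.00700, where near-identical globin copies make the division of reads uncertain.

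Of the embryonic tissues, the epiblast markers were lower in tw18/tw18, with 5 of 8 past the threshold, where 6.94% of all genes were lower and 15.1% higher. Among them were Nanog at 23.0, 27.1 and 5.35 and Tdgf1 at 74.5, 71.99 and 19.2. The 7 visceral endoderm markers summed to 820.0, 801 and 1048, and none passed it, with Apoa1, the most abundant, at 246, 233 and 337. The 6 extra-embryonic ectoderm markers summed to 89.5, 68.1 and 71.2, and 5 were higher, among them Esrrb at 1.19, 0.939 and 3.91 and Tfap2c at 6.36, 5.99 and 18.4, and Eomes was lower at 77.1, 58.0 and 37.0. The markers of leukocytes, macrophages, endothelium and decidua thus had their highest sums in tw18/tw18 for all but the decidua, as B2m, Cd74, H2-Aa and Tap1 did, and their part in the higher MHC levels was not tested. In bulk RNA more cells of a kind and more RNA per cell cannot be told apart.

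Between tw18/+ and WT the markers went both ways. The sums of the leukocyte, macrophage and endothelial markers were lower in tw18/+, but 5 of 7 leukocyte, 4 of 8 macrophage and 3 of 7 endothelial markers were above WT there, so the sums follow their most abundant genes. The class II chains summed to 3.26 in WT and 5.47 in tw18/+, and the class II editing genes to 2.66 and 6.37. In tw18/tw18 each of these sums was above both other libraries.

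**Figure D4:**
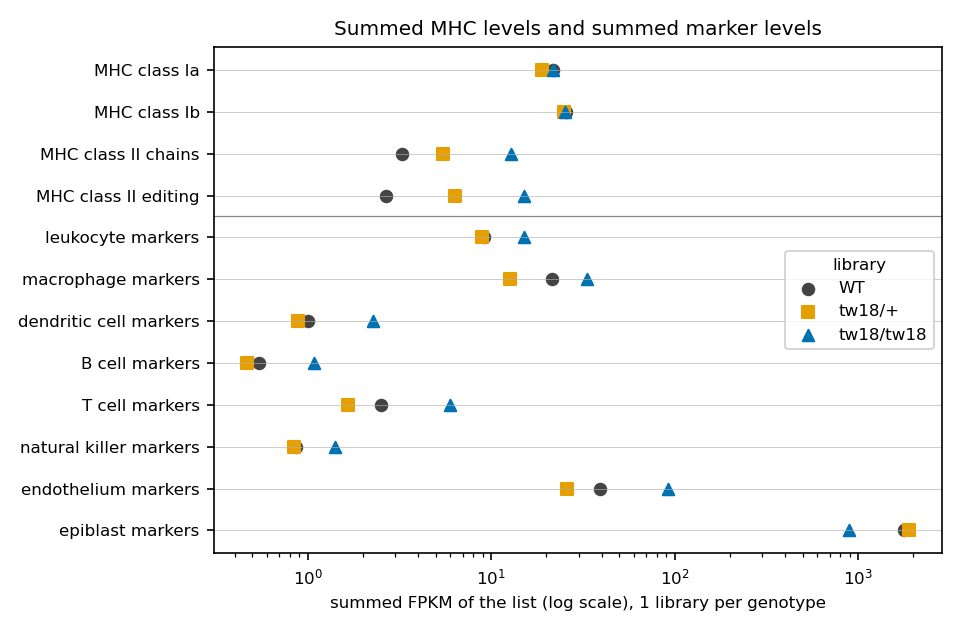
Summed FPKM of MHC gene groups (above the line) and of marker lists (below it) on a log axis, with 1 point for each of the WT, tw18/+ and tw18/tw18 libraries and no replicates. The class II sums increase from WT (3.26 for the chains) over tw18/+ (5.47) to tw18/tw18 (12.9), the class Ia and class Ib sums hardly differ, the leukocyte, macrophage and endothelial sums are lowest in tw18/+ and highest in tw18/tw18, and the epiblast sum is lowest in tw18/tw18.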

How the data were processed

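RNA from E6.5 embryos was sequenced as 50 bp paired-end reads, 1 library each of WT, tw18/+ and tw18/tw18. Total RNA was copied with random hexamers and amplified over 14 PCR cycles, so fragments are not independent molecules. TopHat alignments to the mouse build mm10, equal to GRCm38, were turned by the authors into FPKM with Cuffdiff, and these FPKM values were deposited. The submitters' processing notes list TopHat2, Bowtie 1.0.0, Cuffdiff and Cufflinks 2.2.1. The gene annotation and the strand setting are not given in the sources used here. FPKM of a gene falls when other genes take more of a library.

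Groups were taken from the sample labels. The values were then worked out in pandas 2.3.3 and numpy 2.4.6 under Python 3.11.15, and drawn in matplotlib 3.10.9. With 1 library per genotype, 3 pairs were compared without a test. A gene was counted as higher or lower where either library reached an FPKM of 1 and the log2 ratio was 1 or more in size. The genes, gene lists and motifs were chosen with earlier results of these data known. Every member at an FPKM of 1 or more in any library was named. From each other list the 2 largest increases and the 2 largest decreases between tw18/tw18 and WT past the threshold were named, or else the most abundant gene, and further genes were added after their values were seen. Fragment numbers were estimated from the spacing of low FPKM values of single-transcript genes, with 150 bp allowed for the fragment length, and are approximate. Positions and transcripts came from GENCODE M21 and promoter windows from RefSeq, both on GRCm38. Counting of calls was tested on simulated data. Alternatives were pseudocounts of 0.1 and 1, an FPKM minimum of 5 or none, a log2 threshold of 2, centring on the median, equal FPKM sums, a minimum on the mean FPKM, and leaving out genes with shared sequence.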

Additional observations from a re-analysis of the deposited data

How the results depend on the processing

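Shares of all genes are given here under the same setting as the MHC count. Between tw18/tw18 and WT, the count of lower MHC genes was 1 of 30 with a pseudocount of 1, against 4.12% of all genes. With a pseudocount of 0.1 the median log2 ratio was 0.66. A minimum FPKM of 5 left 2 higher and 0 lower of 10, against 8.96% and 4.11% of all genes. No minimum gave 13 lower of 45, against 10.8% of all genes, with a median of 0.34. A log2 threshold of 2 left 7 higher and 3 lower of 30, against 5.76% and 2.28% of all genes. Equal FPKM sums gave a median of 0.69. Between tw18/+ and WT, a pseudocount of 1 gave 2 higher and 2 lower of 27, against 2.12% and 2.31% of all genes, and a median of 0.11. A minimum of 5 gave 1 higher and 0 lower of 8, against 1.12% and 1.63% of all genes. The median was then -0.028, which changed sign. No minimum gave 16 higher and 9 lower of 43, against 15.8% and 9.91% of all genes. A threshold of 2 gave 3 higher of 27, against 1.71% of all genes. Between tw18/tw18 and tw18/+, a pseudocount of 1 gave 5 higher of 28, against 9.18% of all genes, and a median of 0.29. With a pseudocount of 0.1 the median was 0.43. A minimum of 5 gave 1 higher and 1 lower of 10, against 9.24% and 3.21% of all genes, and a median of 0.24. No minimum gave 15 higher and 9 lower of 44, against 21.4% and 12.1% of all genes, and a median of 0.24. Equal sums gave a median of 1.05. A threshold of 2 gave 4 higher of 28, against 4.75% of all genes. Settings chosen after seeing the data were a minimum of 1 on the mean FPKM and leaving out genes with 10% or more shared words. The first gave 6 higher and 0 lower of 18 between tw18/tw18 and WT, against 12.3% and 5.75% of all genes. Between tw18/+ and WT it gave 4 higher and 1 lower of 18, against 3.78% and 3.805% of all genes. Between tw18/tw18 and tw18/+ it gave 6 higher and 1 lower of 18, against 12.3% and 4.89% of all genes. Leaving out genes with shared words gave 11 higher and 1 lower of 17 between tw18/tw18 and WT, and a median of 1.15. Between tw18/+ and WT it gave 4 higher and 1 lower of 13, and a median of 0.38. Genes were left out of the MHC count alone. The shares of all genes thus stayed at 15.1% and 6.94%, and at 4.7% and 5.02%, in turn. The cause of these shifts was not tested, apart from the fewer genes that a stricter minimum leaves. The ratio of H2-K1 turned from -0.19 to 0.019 with equal sums. Psmb8, just inside the threshold, fell to 0.97 and 0.75 with pseudocounts of 0.1 and 1, and H2-Ab1, just outside it, came to 1.04 after centring and 1.20 with equal sums. Counts over the MHC genes thus rest on genes with few fragments. No paired analysis was possible because each genotype had 1 library, and none could be left out.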
